A study of Homo sapiens with 24 samples.

Results

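The 6 arrays of LNCaP cells treated with ST045849 fell into 2 sets of 3 that crossed their labelled times. Set 1 held 12 hours replicate 3, 24 hours replicate 1 and 24 hours replicate 3, and set 2 held 12 hours replicate 1, 12 hours replicate 2 and 24 hours replicate 2. They are 6 of the 24 arrays of the series, and the sets were chosen by the arrays' position on the first principal component of all genes, so the values that separate the sets are a description and carry no test. On that component, which held 34.2% of the variance of the 24 arrays, set 1 lay at 25.87 to 29.16 and set 2 at 14.08 to 20.39. With the 6 arrays taken alone the first component held 33.6%, and set 1 lay at 5.29, 11.55 and 12.02 against -18.47, -6.29 and -4.1 in set 2. The sets did not overlap there either, but the widest gap lay inside set 2, between 12 hours replicate 1 and the other arrays.

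LNCaP is an established androgen-sensitive line from a lymph node metastasis of a human prostate cancer, so all samples come from 1 line. The 24 one-colour Illumina arrays form 8 groups of 3: cells given ST045849, an inhibitor of O-GlcNAc transferase (OGT), cells given its vehicle, cells given an siRNA against OGT (siOGT) and cells given a scrambled siRNA, each for 12 or 24 hours. OGT attaches N-acetylglucosamine to nuclear and cytosolic proteins. The sources used here give no dose, and no label names a culture, slide or batch that would set the sets apart, so the arrays go against their labels only in that they group across the labelled hours. The same division by hours and replicate number separated the vehicle arrays (-12.85 to -12.42 in set 1, -3.31 to -2.67 in set 2), the scrambled arrays (-10.83 to -9.34 and -6.34 to -1.27) and the siOGT arrays (-12.4 to -11.56 and -5.31 to -3.86) on the component of 24 arrays.

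**Figure D1:**
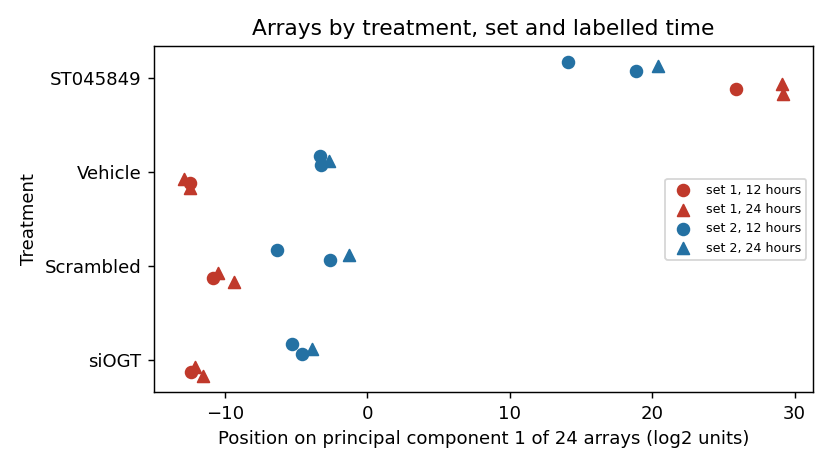
Each point is 1 array at its position on the first principal component of the 24 arrays (x axis, log2 units), by treatment (y axis). Red points are set 1 and blue points set 2, with circles for 12 hours and triangles for 24 hours. In the ST045849 row set 1 lies farther from the other treatments (25.87 to 29.16) than set 2 does (14.08 to 20.39), and in the 3 other rows set 1 lies to the left of set 2.

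Values are normalized probe intensities on the log2 scale, where a difference of 1 is a doubling, and differences are set 1 minus set 2. Between 15306 and 16105 probes were detected on the set 1 arrays with ST045849 and between 14782 and 15026 on those of set 2. These ranges do not overlap, and their part in the differences below was not tested. The ST045849 arrays correlated at a median of 0.9921 within a set (6 pairs) and 0.9901 between sets (9 pairs) across 10345 genes. Of 15 prostate luminal markers with a named probe, 14 were detected on all 6 arrays, including the defining markers KLK3, KLK2, KRT8, KRT18 and HOXB13. Of 20 basal and stromal markers 3 were detected (ACTA2, TAGLN and VIM), with a summed linear level of 928 to 954 in set 1 and 1045 to 1265 in set 2, while KRT5, KRT14, COL1A1 and DCN were detected on none. ENO2 and TUBB3 were the 2 of 15 neuroendocrine markers detected, with a summed level of 1204 to 1218 in set 1 and 985 to 1167 in set 2, and CHGA and SYP were detected on none. CD68 and VWF were the 2 of 13 leukocyte and endothelial markers detected, at 501 to 590 and 581 to 639, and PTPRC, CD3E and PECAM1 were detected on none. The part of these sums in the results was not tested.

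Across genes, the ST045849 cells of set 1 had lower levels of mitotic and DNA replication genes and of metallothioneins than those of set 2. They had higher levels of ATF4 target genes and at the probes of 2 aldo-keto reductases. In all, 978 of 10345 genes (9.45%) were higher on every set 1 array than on every set 2 array, and 940 (9.09%) were lower. With a difference of at least 1.5-fold added, 34 genes (0.329%) were higher in set 1 and 109 (1.05%) were lower. Without background correction 27 genes in all met these criteria in place of 143, and without ST045849 12 hours replicate 3 there were 222. The genes nearest the 1.5-fold limit were MALL (-0.59), BUB1 (-0.59) and FBXL9P (0.59) inside it, and SLC18B1 (0.58), CAMK2N1 (-0.58) and LINC02693 (0.58) outside it. Of the 109 lower genes, 26 belonged to the G2/M list, 7 to the G1/S list and 6 to the metallothionein list, and 62 belonged to no list. Of the 34 higher genes 29 belonged to no list. The probes of 13 higher genes were detected on no set 2 array, and those of 14 lower genes on no set 1 array. A probe detected on any 3 arrays was kept, so such genes could enter through the set where they are high. Their fold difference is known only as a bound, which can lie below 1.5. The higher genes were dim, with a median level of 6.20 in set 1, beside 7.71 for all genes. Allowing for the labelled hours, 29 of the 34 and 84 of the 109 still differed by at least 1.5-fold.

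Genes of the G2 phase and mitosis are switched on late in each cell cycle, largely by the DREAM, B-MYB and FOXM1 complexes, and their summed level follows the share of dividing cells in a culture. In bulk arrays fewer cells in a phase and less RNA per cell cannot be told apart. All 57 measured members of the G2/M list had a lower mean in set 1 of the ST045849 arrays, and 53 of them were lower on every array, beside 9.09% of all genes. Their median difference was -0.57, beside 0.01 for all genes tested, and single members ranged from -0.93 to -0.14. With any 1 of the 6 arrays left out the median lay between -0.64 and -0.51. The mean log2 level of the list was 8.0, 7.86 and 7.77 on the set 1 arrays (12 hours replicate 3, 24 hours replicate 1, 24 hours replicate 3) and 8.52, 8.35 and 8.44 on the set 2 arrays (12 hours replicate 1, 12 hours replicate 2, 24 hours replicate 2). The 3 set 1 arrays were the lowest whatever their labelled hours, and the 12 hour array of set 1 lay below both 12 hour arrays of set 2. The same order of arrays, set 1 first, is kept for the values of each gene below.

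KIF23, a kinesin of the central spindle needed for cytokinesis, stood at 6.14, 5.67 and 5.68 in set 1 and 6.70, 6.73 and 6.70 in set 2, a difference of -0.88 ± 0.16 (SE, 3 and 3 arrays). NDC80, which couples kinetochores to microtubules, stood at 7.13, 7.15 and 6.69 against 8.17, 7.67 and 7.88 (-0.92 ± 0.21). Both genes were lower on every set 1 array. FAM83D, a spindle protein outside the list, stood at 8.01, 7.98 and 7.66 against 9.04, 8.97 and 8.78 (-1.04 ± 0.14). CDCA2, which brings protein phosphatase 1 to mitotic chromosomes, stood at 6.29, 6.10 and 6.0 against 7.03, 7.0 and 7.15 (-0.93 ± 0.09). The spread inside each set was small beside the gap for FAM83D and CDCA2. CDK1, the kinase that drives entry into mitosis, stood at 10.16, 9.88 and 9.94 against 10.67, 10.39 and 10.58 (-0.56 ± 0.12), and a second CDK1 probe gave -0.79. CDCA3, which promotes mitotic entry, differed by -0.85, and PLK1, a kinase of spindle assembly, by -0.56.

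Promoters of many mitotic genes carry the CHR element, which the DREAM and B-MYB complexes contact, and a CCAAT box, the binding sequence of NF-Y. The promoters of NDC80 and KIF23 are shown because these genes had the largest differences among listed mitotic genes whose promoter may be printed here, from 250 bases before to 50 bases after the RefSeq start on GRCh38.p14, and capitals mark matches to the letters TTTGAA of CHR or to the letters CCAAT on either strand. NDC80 lies on the plus strand at chr18:2571307-2571606 and held 1 CHR match, at -3 from the start. KIF23 lies on the plus strand at chr15:69414099-69414398 and held 1 CHR match at -55 and 1 CCAAT match at -64.
NDC80: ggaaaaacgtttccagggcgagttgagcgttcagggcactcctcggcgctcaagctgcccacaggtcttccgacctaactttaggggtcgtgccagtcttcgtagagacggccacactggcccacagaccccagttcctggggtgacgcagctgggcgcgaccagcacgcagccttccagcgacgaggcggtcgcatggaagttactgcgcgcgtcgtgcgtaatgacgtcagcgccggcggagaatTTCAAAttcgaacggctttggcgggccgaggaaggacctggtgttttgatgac
KIF23: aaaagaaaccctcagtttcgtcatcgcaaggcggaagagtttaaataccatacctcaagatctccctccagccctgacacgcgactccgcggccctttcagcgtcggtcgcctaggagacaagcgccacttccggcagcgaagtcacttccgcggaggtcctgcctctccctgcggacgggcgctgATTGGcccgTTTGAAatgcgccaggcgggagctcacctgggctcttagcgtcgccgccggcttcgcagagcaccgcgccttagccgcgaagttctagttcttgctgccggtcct
Of the 57 measured G2/M genes 47 had a promoter in the RefSeq table. CHR letters were found in 34 of the 47 (72.3%), beside 15.2% of all 35116 promoters, and CCAAT letters in 33 (70.2%), beside 34.6%. The matches are a description of these windows, and the binding of a factor was not measured.

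Genes of the G1/S transition and DNA replication, most of them E2F targets, parted in the same direction. Of 44 measured members 31 were lower on every set 1 array, beside 9.09% of all genes, and none (0) was higher, beside 9.45%. The median difference was -0.42. The mean level of the list was 8.10, 7.97 and 8.03 in set 1 and 8.45, 8.44 and 8.33 in set 2. RFC3, a subunit of the clamp loader, stood at 7.38, 6.73 and 7.20 against 7.87, 7.91 and 8.0 (-0.82 ± 0.20), and RRM2, a subunit of ribonucleotide reductase, at 7.27, 7.22 and 6.71 against 7.73, 8.02 and 7.53 (-0.69 ± 0.23). The arrays of the 2 sets did not overlap for either gene. PCNA, the sliding clamp, differed by -0.64, with -0.24 and -0.35 by its other probes, and LIG1, the replicative DNA ligase, by -0.65. MCM4, a subunit of the replicative helicase, differed by -0.53 (-0.67 by a second probe). CDC25A, the phosphatase that activates CDK2, overlapped between the sets (7.24, 6.91 and 7.19 against 7.14, 7.63 and 6.98). Among 24 measured replication-dependent histone genes the median difference was 0.05. On every array 5 were higher (H4C8 by 0.50, H4C5 by 0.47, H4C14, H2AC6 and H4C12), beside 9.45% of all genes. The 3 lower on every array, beside 9.09%, were H2BC11 (-0.38), H4C3 and H1-2.

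Metallothioneins are small cysteine-rich proteins that bind zinc, copper and cadmium, and their transcription rises with free zinc through the factor MTF1. All 6 measured metallothionein genes were lower on every set 1 array, beside 9.09% of all genes. SLC30A1, the zinc exporter that completes the list, overlapped (-0.07). MT1X stood at 10.91, 10.85 and 11.03 in set 1 and 11.88, 12.47 and 12.34 in set 2 (-1.30 ± 0.19), and MT2A at 11.50, 11.45 and 11.59 against 12.36, 12.87 and 12.66 (-1.12 ± 0.15). For both genes 12 hours replicate 1 was the lowest array of set 2 and still lay above all of set 1. MT1F differed by -1.57 ± 0.22, MT1H by -1.03 ± 0.24, MT1E by -0.86 ± 0.20 and MT1G by -0.85 ± 0.24. These paralogs are nearly identical, so a probe can pick up more than 1 of them and the split between genes is uncertain.

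The promoters of MT1X and MT2A are shown because 6 of the 109 lower genes were metallothioneins and these 2 had the largest differences among those in the RefSeq table. Both are on the plus strand of GRCh38.p14 in RefSeq, MT1X at chr16:56682220-56682519 and MT2A at chr16:56608334-56608633, and capitals mark the letters of the metal response element, TGCACNC or TGCGCNC on either strand. This motif was chosen after the values had been seen.
MT1X: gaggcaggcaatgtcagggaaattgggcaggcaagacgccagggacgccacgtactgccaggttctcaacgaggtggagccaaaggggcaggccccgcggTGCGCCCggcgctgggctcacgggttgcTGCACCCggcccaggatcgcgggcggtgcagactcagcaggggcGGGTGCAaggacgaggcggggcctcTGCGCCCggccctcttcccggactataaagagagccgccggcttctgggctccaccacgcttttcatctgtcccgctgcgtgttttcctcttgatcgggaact
MT2A: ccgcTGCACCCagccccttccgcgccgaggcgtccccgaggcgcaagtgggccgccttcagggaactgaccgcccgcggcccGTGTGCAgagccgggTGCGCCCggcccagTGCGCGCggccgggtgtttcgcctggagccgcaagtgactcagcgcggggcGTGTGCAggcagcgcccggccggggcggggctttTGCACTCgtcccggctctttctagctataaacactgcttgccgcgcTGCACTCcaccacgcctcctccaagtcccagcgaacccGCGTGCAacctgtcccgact
MT1X held 4 matches and MT2A held 8. The RefSeq table held promoters for 4 of the 7 genes on the list, and all 4 contained the letters, with 2 to 8 matches each, beside 29.6% of all 35116 promoters. The same letters were also found in 21 of the 47 G2/M promoters (44.7%).

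TM4SF1, a tetraspanin-like surface protein, stood at 6.69, 6.75 and 6.43 in set 1 and 8.43, 8.14 and 7.96 in set 2 (-1.55 ± 0.17). ACTA2, smooth muscle actin, stood at 7.94, 7.96 and 7.81 against 8.59, 8.83 and 9.07 (-0.93 ± 0.15). MXD3, a MAX-binding repressor of the MYC network that is expressed in S phase, was detected on 1 of 3 set 1 arrays and differed by -0.91. RNLS, which encodes renalase, was detected on no set 1 array and was at least 1.74-fold lower there, measured against the lowest detected signal of each array. Its other probes disagreed, with -0.97 and 0.20. Without ST045849, RNLS was also lower on every set 1 array (-0.42 in vehicle, -0.33 in scrambled and -0.40 in siOGT arrays). TM4SF1 also had a lower mean in set 1 there (-0.31 in vehicle, -0.47 in scrambled and -0.56 in siOGT arrays). Cytosolic heat shock genes, which encode protein-folding chaperones, had a median difference of -0.27. Of 23 such genes 15 were lower on every set 1 array, beside 9.09% of all genes. The co-chaperone DNAJA2 (0.15) was the 1 higher gene, beside 9.45%. HSPH1, a nucleotide exchange factor for HSP70, stood at 10.70, 10.53 and 10.55 against 11.19, 11.20 and 11.26 (-0.62 ± 0.06), with little spread inside either set. DNAJB4, an HSP40 co-chaperone, differed by -0.62 but by 0.06 at its other probe.

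**Figure D2:**
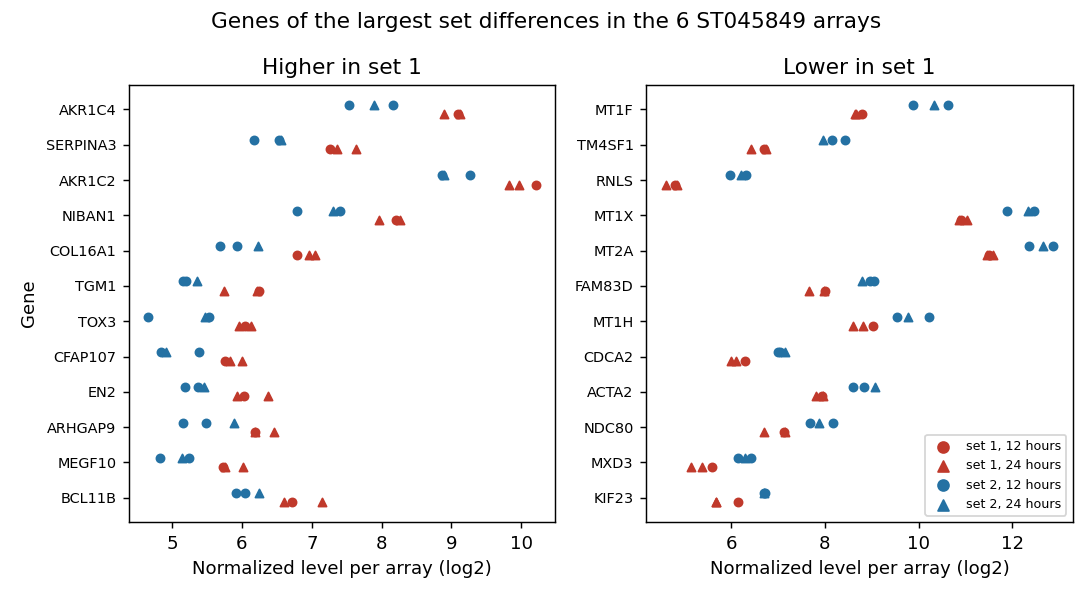
Normalized level (x axis, log2) of the 12 genes with the largest differences each way (y axis) on each of the 6 ST045849 arrays. Red is set 1, blue is set 2, circles are 12 hours and triangles 24 hours. The colours do not overlap for any gene, since that was the criterion, and the labelled hours are mixed within each colour.

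ATF4 is the transcription factor of the integrated stress response, which slows protein synthesis when amino acids run short or unfolded proteins build up and turns on genes of amino acid supply. Of 47 measured ATF4 and amino acid response genes, 29 were higher on every set 1 array, beside 9.45% of all genes, and 1, the ubiquitin ligase adaptor KLHL24 (-0.45), was lower, with a median difference of 0.28. The mean level of the list was 10.30, 10.32 and 10.31 in set 1 and 9.99, 10.05 and 10.10 in set 2. NIBAN1, a stress-induced regulator of translation, stood at 8.20, 8.27 and 7.97 against 6.79, 7.4 and 7.30 (0.98 ± 0.21, and 1.26 by a second probe). ATF3, a transcription factor downstream of ATF4, stood at 10.03, 10.11 and 10.05 against 9.43, 9.59 and 9.22 (0.65 ± 0.11). The 3 set 1 arrays lay close together for ATF3. DDIT3, which encodes the death-promoting factor CHOP, stood at 10.33, 10.78 and 10.43 against 9.60, 10.05 and 10.09 (0.60 ± 0.21), and SLC7A11, the cystine transporter, differed by 0.58. SLC7A5, a leucine transporter on the same list, overlapped between the sets, with a difference of 0.11. In the ER unfolded protein response list 12 of 35 genes were higher on every array, beside 9.45% of all genes. The disulfide isomerase PDIA4 (-0.15) was the 1 lower gene, beside 9.09%, and the list had a median of 0.15. Its largest differences were those of the chaperone DNAJB9 (0.47) and the disulfide isomerase PDIA6 (0.43).

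The aldo-keto reductases AKR1C4 and AKR1C2, which reduce ketosteroids and belong to a family of near-identical paralogs, had the first and the third largest rises. A probe can pick up more than 1 paralog, so the 2 rises may not be separate signals. AKR1C4 stood at 9.10, 9.12 and 8.89 in set 1 and 7.54, 8.17 and 7.89 in set 2 (1.17 ± 0.19), and AKR1C2 at 10.21, 9.97 and 9.83 against 8.87, 9.27 and 8.90 (0.99 ± 0.17). All set 1 arrays lay above all set 2 arrays for both. SERPINA3, a secreted protease inhibitor of the acute phase, stood at 7.26, 7.63 and 7.36 against 6.17, 6.53 and 6.56 (1.0 ± 0.17). COL16A1, a fibril-associated collagen, differed by 0.98, TOX3, an HMG-box protein detected on 1 of 3 set 2 arrays, by 0.83, and BCL11B, a zinc finger repressor, by 0.75. Where no set 2 array detected the probe, the difference is a bound: TGM1, a transglutaminase of the cornified envelope, was at least 1.5-fold higher, the homeobox gene EN2 at least 1.54-fold, CFAP107, of ciliary microtubules, at least 1.29-fold, and MEGF10, a phagocytic receptor, at least 1.27-fold. Of 25 measured NRF2 genes, which encode antioxidant and detoxifying enzymes, 8 were higher on every set 1 array, beside 9.45% of all genes. None (0) was lower, beside 9.09%, and the list median was 0.11.

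Other lists had small median differences, although single members parted in either direction. The counts below stand beside 9.45% of all genes higher and 9.09% lower on every set 1 array. The median difference was -0.06 for 56 MYC target and ribosome biogenesis genes (14 lower on every array and 1, the RNA helicase DDX21, higher), 0.07 for 40 androgen response genes (9 higher and 3, KRT19, NCAPD3 and SGK1, lower, with KRT19 detected on 0 of 3 set 1 arrays and 1 of 3 set 2 arrays), and 0.07 for 26 cholesterol genes. It was 0.00 for 66 cytosolic ribosomal protein genes, 0.01 for 69 respiratory chain genes and -0.03 for 31 proteasome genes, in which single genes differed by no more than 0.31 in size. Of the cholesterol genes 7 were higher and 5 lower on every array, the latter being ACAT2 (-0.45), EBP, SREBF2, MVK and NPC2, with SREBF2 detected on 0 of 3 set 1 arrays. SC5D, a late enzyme of the pathway, differed by 0.52 and FDPS, which makes farnesyl diphosphate, by -0.55 with overlap. OGT stood at 9.55, 9.60 and 9.40 in set 1 and 9.39, 9.45 and 9.34 in set 2, and OGA, which removes the modification, at 10.82, 10.89 and 10.66 against 10.55, 10.82 and 10.74. MYC stood at 11.62, 11.31 and 11.46 against 11.47, 11.43 and 11.48. The sets overlapped for these 3 genes, as they did for the prostate protease KLK3 (-0.20). CDKN1A, which encodes the CDK inhibitor p21, stood at 11.78, 11.89 and 11.79 against 11.83, 11.87 and 11.94.

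The second question was whether the division also marked cells that had not received ST045849. It was tested in the 12 siOGT and scrambled arrays, which took no part in naming the ST045849 sets. The component that showed the sets was computed with them too, so the test is not fully independent of the division. On that component the division also parted these 12 arrays, with set 1 farther from the ST045849 arrays than set 2. The direction of genes that weigh on the component may thus be partly fixed in advance. The calls and p-values below are therefore read as a description. In the siOGT arrays OGT itself, the targeted gene, differed by -0.88 between the sets, against 0.24 in the scrambled arrays. Limma called 163 genes higher (1.58%) and 125 lower (1.21%) in set 1 at an adjusted p under 0.05. Metallothioneins fell here as well, and G2/M genes moved the other way. Of the 57 G2/M genes 36 were higher in set 1, beside 1.58% of all genes, and none (0) was lower, beside 1.21%. The list median was 0.43. MT1F (-1.32, adjusted p = 0.00293), MT2A (-1.24, adjusted p = 0.00135) and MT1X (-0.99, adjusted p = 0.000461) were lower in limma. With MT1H, MT1E and MT1G, 6 of the 7 genes on the list were lower, beside 1.21% of all genes. PLK1 was higher by 0.86 ± 0.11 (SE; limma adjusted p = 0.00240) and KIF23 by 0.51 ± 0.09 (adjusted p = 0.0129). BRDT, a testis bromodomain protein, was higher by 1.05, and AMY1A, an amylase, by 0.72. OGA was lower (-0.67), which came from the siOGT arrays (-1.32) and not the scrambled ones (-0.02), and CDKN1A fell by 0.43 (limma adjusted p = 0.0106).

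Median scaling in place of quantile normalization shifted the median of all genes in this contrast to -0.10 and left 9 genes higher and 30 lower. With it, 4 of the 57 G2/M genes were higher and 6 metallothioneins were lower. Tested alone, the siOGT arrays gave 2 calls (KATNAL1 at 0.85 and OGA) and the scrambled arrays 0, with 1225 and 923 genes at an unadjusted p under 0.05 in limma. The G2/M median was 0.42 in siOGT and 0.41 in scrambled arrays, and the metallothionein median -0.90 and -0.97. With any 1 array left out, 138 to 215 genes were called in all (138 without siOGT 24 hours replicate 1 and without scrambled 12 hours replicate 2), with 24 to 36 of the G2/M genes and 4 to 6 of the metallothioneins. Of 25 NRF2 genes 7 were called, all lower in set 1, beside 1.21% of all genes. They were HMOX1 (heme oxygenase, by -0.86), AKR1C2, AKR1C3, GPX2, MAFG, SQSTM1 and UGDH, and median scaling gave 3 such calls. Of 26 cholesterol genes 7 were called, all higher, beside 1.58% of all genes. They were FDPS (by 0.60), MSMO1 (by 0.54), ACAT2 (by 0.50), LSS, HMGCS1, DHCR7 and EBP, and median scaling gave 0 such calls. Of 47 ATF4 genes 1 was called lower, the stress cytokine GDF15 (-0.42), beside 1.21% of all genes. Of 44 G1/S genes 1 was called higher, thymidine kinase TK1 (0.30), beside 1.58%. The list medians were -0.07 and 0.07.

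In the vehicle arrays, given as a description because the division was first seen in them, the G2/M median was 0.45 and 50 of 57 genes were higher on every set 1 array, beside 8.98% of all genes. The same 6 metallothioneins were lower on every set 1 array, beside 11.8%, and the list median was -0.88. KIF23 differed by 0.78 in vehicle, 0.52 in scrambled and 0.50 in siOGT arrays, against -0.88 with ST045849. MT2A differed by -1.42, -1.24 and -1.24, against -1.12. Over all genes 36 parted in the same direction without overlap in the 4 treatments, 22 of them lower in set 1, and 97 parted one way with ST045849 and the other way in the 3 other treatments, 80 of them lower in set 1 with ST045849. Named after their values were seen, the 36 included ACTA2, LCP1, VWF, HES4 and 5 metallothioneins among the lower genes, and FADS1, UGT2B15, UGT2B17 and BRDT among the higher ones.

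**Figure D3:**
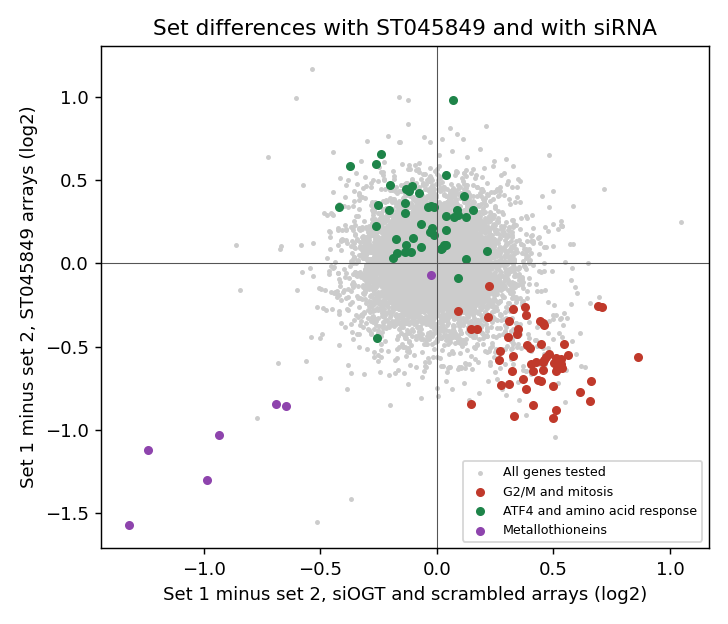
Difference between sets with ST045849 (y axis) against the difference in the siOGT and scrambled arrays (x axis), both set 1 minus set 2 on the log2 scale, for 10345 genes (grey) and 3 lists. The G2/M genes (red) lie at the lower right, with medians of -0.57 and 0.43, and 6 of the 7 metallothionein genes (purple) lie at the lower left.

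**Figure D4:**
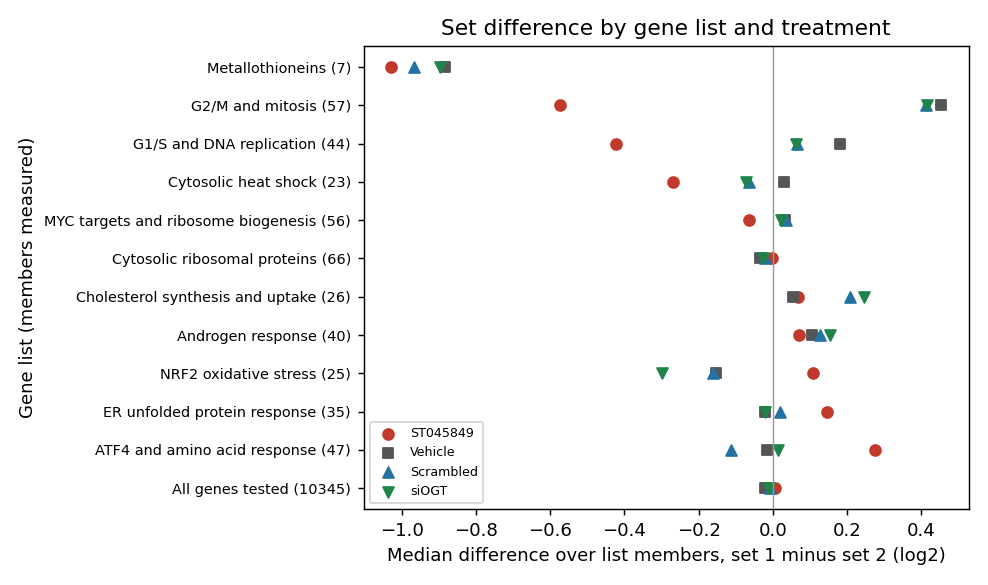
Median difference between the sets over the measured members of 11 gene lists and of all genes (y axis, number measured in brackets), on the log2 scale (x axis), for each treatment. For G2/M genes ST045849 lies at -0.57 and the other treatments at 0.41 to 0.45, while for metallothioneins all 4 lie between -1.03 and -0.88.

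The third question was what ST045849 changed against vehicle within each set, where both treatments hold the same labelled hours and replicate numbers. Limma called 1875 genes up (18.1%) and 1502 down (14.5%) in set 1, and 501 up (4.84%) and 449 down (4.34%) in set 2. Of these, 819 were called in the same direction in both sets, which is 24.3% of the set 1 calls and 86.2% of the set 2 calls, and 2 were called in opposite directions. These 2, named after their values were seen, were KIAA1217 (0.61 in set 1 and -0.51 in set 2) and WDR73 (0.27 and -0.34). Over the 950 genes called in set 2 the median size of the change was 0.62 in set 1 and 0.47 in set 2, and 667 of them changed more in set 1. The ST045849 arrays were placed in sets by a component on which they also lie apart from vehicle, and the division was first seen in the vehicle arrays. The larger number of calls in set 1 is thus a description of the sets as chosen and not a result about them. The same holds, here and below, for sizes of change and p-values that differ between the sets, and for genes called in only 1 set. The difference between the 2 changes holds the contrast that chose the sets and was not tested. Median scaling gave 542 up and 1816 down in set 1, with the median of all genes at -0.14, and 219 calls in set 2. The share of rises in set 1 was 55.5% with quantile normalization and 23% with median scaling. Without ST045849 24 hours replicate 2 there were 632 calls in set 2.

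In set 1 all 57 G2/M genes fell, beside 14.5% of all genes, with a median change of -1.30. In set 2 14 of 57 fell, beside 4.34%, with a median of -0.22. With median scaling 57 fell in set 1 and 0 in set 2, with only the 6 arrays of set 2 in the fit 5 fell there, and with 1 array left out 7 to 13 did (7 without vehicle 12 hours replicate 1). The mean level of the list with vehicle was 9.17, 9.15 and 9.13 in set 1 and 8.74, 8.60 and 8.67 in set 2. The vehicle arrays of set 1 were thus the highest and the ST045849 arrays of set 1 the lowest of the 12. KIF23 changed by -1.92 in set 1 (limma adjusted p = 2.14e-09) and by -0.25 in set 2 (adjusted p = 0.297). CDK1 changed by -1.78 (adjusted p = 1.57e-10) and by -0.50 (adjusted p = 0.00442).

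G1/S genes fell in both sets, 40 of 44 in set 1, beside 14.5% of all genes, and 33 in set 2, beside 4.34%. The medians were -1.25 and -0.57. CDC25A fell by 1.52 and 1.33 (limma adjusted p = 1.09e-07 and 5.64e-06), and MCM10, a replication initiation factor, fell by 1.72 and 1.06 (adjusted p = 3.36e-11 and 1.56e-07). RFC3 fell by 1.75 in set 1 (adjusted p = 5.30e-08), and its change of -0.35 in set 2 did not pass (adjusted p = 0.202). With only the 6 arrays of set 2 in the fit, or with median scaling, 21 of the 44 fell in set 2, and with 1 array left out 25 to 32.

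In set 1 all 47 ATF4 response genes rose, beside 18.1% of all genes, with a median of 1.05. In set 2 41 rose, beside 4.84%, with a median of 0.84. With median scaling 39 and 33 rose, and with only its 6 arrays 36 rose in set 2. NIBAN1 rose by 3.22 in set 1 and 2.03 in set 2 (limma adjusted p = 7.88e-12 and 1.94e-08), and DDIT3 by 2.69 and 2.17 (adjusted p = 5.77e-11 and 6.97e-09). SLC7A5 rose by 1.83 and 1.95 (adjusted p = 7.66e-09 and 2.49e-08). Metallothioneins also rose in both sets, 6 of the 7 list genes in each, beside 18.1% and 4.84% of all genes. The medians were 0.90 and 1.03. MT2A rose by 1.21 and 0.90 (adjusted p = 5.13e-05 and 0.00435). With median scaling 2 metallothioneins rose in set 1 and 5 in set 2. The mean level of the list was 8.79, 8.58 and 8.58 with vehicle and 9.50, 9.32 and 9.35 with ST045849 in set 1, and 9.40, 9.80 and 9.38 with vehicle and 10.10, 10.66 and 10.33 with ST045849 in set 2. The treated arrays of set 1 thus overlapped with the vehicle arrays of set 2.

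**Figure D5:**
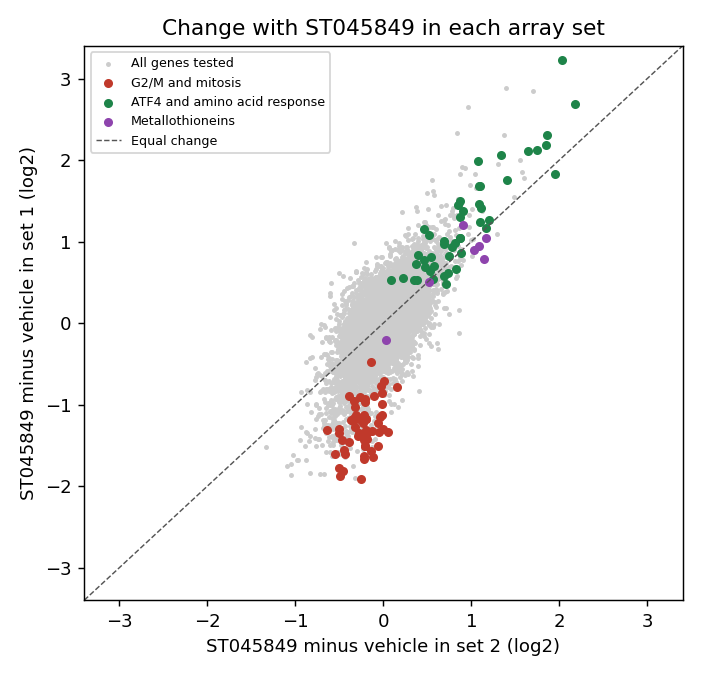
Change with ST045849 against vehicle in set 2 (x axis) and in set 1 (y axis), log2 scale, for 10345 genes (grey) and 3 lists, with a dashed line of equal change. The G2/M genes (red) lie below the line, with medians of -0.22 in set 2 and -1.30 in set 1. ATF4 genes (green) lie closer to it in the median, with a higher value in set 1 (1.05) than in set 2 (0.84). Metallothioneins (purple) have medians of 1.03 in set 2 and 0.90 in set 1.

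Other lists changed with ST045849 as follows. The counts stand beside 18.1% of all genes up and 14.5% down in set 1, and 4.84% up and 4.34% down in set 2. The heat shock counts in set 2 lie near those shares and are no result about that list. Of 23 heat shock genes 14 fell in set 1 and 1, the co-chaperone STIP1 (-0.37), in set 2, and HSPA1L, an HSP70 protein, rose in both (0.37 and 0.68), with medians of -0.29 and -0.13. The rise was not called in set 1 with median scaling, nor in set 2 with scrambled arrays as the control, a setting chosen after seeing the data. The fall in set 2 was called in none of median scaling, scrambled arrays as the control and the fit of only its 6 arrays. Of 56 MYC target and ribosome biogenesis genes 33 fell in set 1 and 12 in set 2, and the methionine adenosyltransferase gene MAT2A rose in both (0.47 and 0.25) and EIF4EBP1, a repressor of translation initiation, in set 1 (0.32). Median scaling gave 33 falls in set 1, 1 in set 2 and 0 rises in either, and with only its 6 arrays in the fit 1 fell in set 2. NRF2 genes rose in 18 of 25 cases in set 1 and in 8 in set 2, with medians of 0.53 and 0.22, and with median scaling in 8 and 4 (4 in set 2 also with only its 6 arrays). AKR1C2 rose by 2.85 and 1.71 (limma adjusted p = 3.56e-10 and 3.35e-06) and SERPINA3 by 2.65 and 0.97 (adjusted p = 4.31e-10 and 0.00109). TM4SF1 fell by 0.84 in set 1 (limma adjusted p = 0.000489), and its value of 0.40 in set 2 did not pass (adjusted p = 0.136). CDKN1A rose by 0.35 in set 1 (limma adjusted p = 0.0063), and its value of -0.26 in set 2 did not pass (adjusted p = 0.0829). OGA rose by 0.78 and 0.47 (limma adjusted p = 2.46e-07 and 0.000705) and OGT by 0.57 and 0.41 (adjusted p = 0.000847 and 0.0296). MYC (0.15 and 0.09) passed in neither set (limma adjusted p = 0.201 and 0.577).

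The labelled hours were tested within ST045849 too, with the set in the model. Limma called 0 of 10345 genes (0%) between 24 and 12 hours, with 724 at an unadjusted p under 0.05, and 0 genes (0%) when the set was left out, with 842 at an unadjusted p under 0.05. For KIF23 the difference between 24 and 12 hours was -0.24 ± 0.14 with the set in the model (SE; limma adjusted p = 0.748) and -0.51 without it (adjusted p = 0.678), as the 24 hour arrays include 2 of the 3 in set 1 and the 12 hour arrays 1.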

How the data were processed

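Total RNA of LNCaP cells was hybridised to Illumina arrays. Per the file headers, the deposited non-normalized values are, for each of 24 arrays, a linear raw intensity and a detection p-value for every probe. The authors also deposited processed intensity values, which kept the order of the raw values (lowest Spearman correlation 1) and had medians of 116.3564 to 116.3933, and the sources used here do not give how they were made. GenomeStudio 2011.1 is named per the submitters' processing notes, with no role. Median raw intensity per array was 101.5 to 126.5, and 29.6% to 34.3% of probes were detected. The number of arrays limits the precision, with a median SE of 0.12 for a set difference with ST045849. The series design calls the replicates biological, but nothing used here says that they are separate cultures, so p-values measure the spread between these samples.

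From the deposited intensities and detection p-values, log2 values were computed with neqc of limma 3.58.1 (normexp background correction, offset 16, quantile normalization over all 24 arrays) under R 4.3.3, files being read by data.table (1.17.8). A probe was kept if its detection p was under 0.01 on 3 or more arrays (17633 of 47323). In the platform annotation 30113 probes had 1 gene symbol, 8 several and 17202 none. Against RefSeq, 0 symbols were updated and 39 probes were unmatched. The probe with the highest mean stood for each gene, which left 10345 genes. Sets were compared with ST045849 by means, SE and overlap of the 3 and 3 arrays. Limma's moderated test with Benjamini-Hochberg adjustment (adjusted p under 0.05) was used for the siRNA arrays (4 means of siRNA by set), for ST045849 against vehicle in each set (8 means of treatment by set over 24 arrays) and for the labelled hours. The model was tested on simulated data. Figures were drawn with matplotlib 3.10.9 in Python 3.11.15.

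The sets, the 32 gene lists and the rules were chosen with earlier results of these data known, from general pathway knowledge. The text names the 12 largest non-overlapping differences each way among genes detected on all 3 arrays of the brighter set, the 2 members of each list with the largest differences (4 for the 8 lists of largest median), the 3 largest calls each way in the other contrasts, and in every case CDK1, MCM4, CDKN1A, DDIT3, KLK3, MYC, OGA and OGT. Not every gene that the rule names is printed, and genes named outside the rule (such as MT1E, MT1G, SLC30A1, GDF15 and HMOX1) were chosen after their values were seen. A probe detected on no array of the dimmer set gives a bound. Alternatives tried were median scaling, no background correction, the processed values, all probes, other filters, the replicate block, fewer arrays, labelled hours and leaving out each array. Added after seeing the data were vehicle arrays in the siRNA test and scrambled arrays as control.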

Additional observations from a re-analysis of the deposited data

Results flagged for a closer look

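Mitotic genes differed between the sets in opposite directions with and without ST045849, with every ST045849 array of set 1 below every one of set 2 and, in vehicle, scrambled and siOGT alike, every array of set 1 above every one of set 2 for the 4 genes given here. This difference was not tested because the sets were chosen on these arrays. FAM83D differed by -1.04 (set 1 minus set 2, log2) with ST045849 against 0.53 in vehicle, 0.51 in scrambled and 0.50 in siOGT arrays. CDCA2 differed by -0.93 against 0.53, 0.32 and 0.67. KIF23 differed by -0.88 against 0.78, 0.52 and 0.50. CDK1 differed by -0.56 against 0.73, 0.41 and 0.24.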

How the results depend on the processing

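The 143 genes without overlap and of at least 1.5-fold with ST045849 were 27 without background correction and 28 with the authors' processed values. Leaving out 1 array gave 141 to 222 (222 without ST045849 12 hours replicate 3). The 288 siRNA calls became 463 without background correction and 463 with the processed values, 39 with median scaling, 179 with labelled hours as a term, 2 in siOGT and 0 in scrambled arrays alone (each with fewer arrays), 846 with vehicle arrays added, and 138 to 215 with 1 array left out, with over 1.5-fold fewer calls for every array left out except 12 hours replicate 1 of siOGT and of scrambled. The 3377 calls of ST045849 against vehicle in set 1 became 2777 to 2992 with 1 array left out, and the 950 of set 2 became 219 with median scaling, 340 with only its 6 arrays and 632 to 907 with 1 array left out (632 without ST045849 24 hours replicate 2). Labelled hours gave 0 to 0 calls without 1 array. Deviations of arrays of the same replicate number correlated weakly (-0.01 to 0.10). On most arrays this was above the best correlation with another number (0.10 against -0.05 for ST045849 12 hours replicate 2). On others it was below (-0.002 against 0.06 for ST045849 12 hours replicate 3). Values this small do not settle whether the numbers pair the samples. With the replicate block the calls were 3477 in set 1, 1066 in set 2 and 1 for the hours (TMPRSS15, 0.87). Single values were recomputed for the named set differences with ST045849 and for the 6 largest calls of each other contrast. Of these 1270 kept direction and call, 73 moved by more than the spread between replicates, 12 (the 6 siRNA calls, each time) lost their call in siOGT or scrambled arrays alone, and 0 reversed. Calls of list members were followed only as counts. The causes were not tested.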
